A study of Mus musculus with 2 samples.

Results

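The miR-106b/93/25 cluster and miR-92b were described through the 5p and 3p arms of 4 hairpins, the 2 strands that are cut from the left and the right side of each precursor. The arms were found by name, and all 8 were present among the 1358 mature miRNAs measured. Retinas were taken on postnatal day 0 from wild-type mice of CD-1, an outbred strain, in a series on miR-216b, Foxn3 and amacrine cells. Small RNA was sequenced from a single group of 2 libraries, replicate 1 and replicate 2, with no treatment and no genetic change in the labels. The labels do not say whether the libraries came from separate animals, and their spread may therefore be only technical.

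A miRNA hairpin is cut into a short duplex, of which a strand is loaded into an Argonaute protein as the guide while the other strand, the passenger, is mostly degraded. Bases 2 to 8 of the loaded strand, the seed, pair with target mRNAs, so miRNAs with the same seed share many targets. miR-106b, miR-93 and miR-25 are copied as part of an intron of Mcm7, which encodes a subunit of the helicase that opens DNA for replication. The cluster is known from dividing cells, in which its seeds act on cell-cycle inhibitors such as Cdkn1a and on the pro-apoptotic gene Bcl2l11. It is a paralog of the miR-17-92 cluster and of the X-linked miR-106a-363 cluster. miR-92b is a separate gene known from neural progenitors, and in the mouse cortex it acts on the transcription factor gene Eomes.

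The mature sequences are shown because they place the 8 arms in families. They are RefSeq entries on build GRCm38, written 5′ to 3′ with the seed in capitals, and all 8 arms had an entry.
miR-106b-5p: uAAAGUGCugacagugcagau
miR-93-5p: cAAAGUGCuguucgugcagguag
miR-25-3p: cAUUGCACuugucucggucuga
miR-92b-3p: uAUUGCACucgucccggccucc
miR-106b-3p: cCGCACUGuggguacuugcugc
miR-93-3p: aCUGCUGAgcuagcacuucccg
miR-25-5p: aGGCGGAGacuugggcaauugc
miR-92b-5p: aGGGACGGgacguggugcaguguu
The first pair shared the seed AAAGUGC of the miR-17 family, and miR-25-3p and miR-92b-3p shared the seed AUUGCAC of the miR-92 family. Each of the other 4 arms had a seed that no other miRNA of the table with a RefSeq sequence carried.

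The 3 hairpins of the cluster lie within 498 bases on the minus strand of chromosome 5 (GRCm38), in the order miR-106b (chr5:138165737-138165818), miR-93 (chr5:138165523-138165610) and miR-25 (chr5:138165321-138165404). The gaps between neighbouring hairpins are 126 and 118 bases. All 3 lie in intron 13 of the 15-exon transcript Mcm7-201, and miR-93 and miR-25 also lie in an exon of Mcm7-202, a transcript that retains the intron. miR-92b lies on the minus strand of chromosome 3 (chr3:89227116-89227198), and no other transcript annotated on that strand covers it. It ends 27 bases before the annotated start of Mtx1, on the same strand, and lies between Thbs3 and Muc1 on the other strand. The hairpins of miR-106b and miR-25 are given because both had the 3p arm higher, but to a very different degree. Capitals mark the annotated arms, the 5p arm first.
miR-106b hairpin: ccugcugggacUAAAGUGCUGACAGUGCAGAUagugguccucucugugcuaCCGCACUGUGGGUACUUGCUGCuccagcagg
miR-25 hairpin: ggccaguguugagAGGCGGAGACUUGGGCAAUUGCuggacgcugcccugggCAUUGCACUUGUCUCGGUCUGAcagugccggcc

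The libraries held 8337903 counts in replicate 1 and 8118208 in replicate 2, so a miRNA with a count of 0 could lie as high as 0.36 and 0.37 CPM (the level of 3 counts, a one-sided limit for counting error only; CPM scales each count by the table total). Of the miRNAs known from the neural retina, all 5 were detected, and together they held 39.8% of the counts in replicate 1 and 42.0% in replicate 2. The 14 markers of other cells, such as vessels, blood, muscle, lens and pigment epithelium, held 0.571% and 0.493%, and of these miR-150-5p, miR-205-5p and miR-223-3p had no count in either library. Most of the neural sum came from miR-9-5p, miR-182-5p and miR-183-5p, and most of the other sum from miR-204-5p. Whether miR-204-5p came only from such other cells was not tested, so the sum does not measure their share. The neural marker miR-124-3p (mean 649 CPM) lay below miR-204-5p (3389 CPM), miR-126a-3p (905 CPM) and miR-184-3p (804 CPM) in both libraries. The remaining neural markers, of which miR-96-5p was the lowest (5964 CPM), lay above all 14 markers of other cells. The part of these other cells in the levels below was not tested. In whole retina, a lower level from fewer cells of a type and from less RNA per cell cannot be told apart.

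All 8 arms were detected in both libraries, and their mean levels ran from 36.8 to 16363 CPM. Together they held 2.24% of the counts in replicate 1 and 2.34% in replicate 2, and miR-25-3p alone made up 71.2% and 71.7% of this sum. Levels of different miRNAs hold the yield of adapter ligation as well as the amount of RNA, so the folds below are folds of counts.

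miR-25-3p, a member of the miR-92 seed family and the guide arm of its hairpin, stood at 15973 CPM in replicate 1 and 16753 CPM in replicate 2. Its mean of 16363 ± 552 CPM (SD, n = 2) put it at rank 11 of 1358, between miR-181a-5p (17710 ± 2269 CPM) and miR-99b-5p (15446 ± 317 CPM). Within each library it lay below miR-181a-5p in replicate 1 (19315 CPM) and above it in replicate 2 (16106 CPM), so the pair had no fixed order, while it was above miR-99b-5p in both. miR-93-5p, of the miR-17 seed family, stood at 4041 and 3966 CPM, a mean of 4003 ± 53.3 CPM and rank 28. miR-106b-3p came next at 1510 and 1772 CPM, a mean of 1641 ± 185 CPM and rank 57. This arm is usually called the passenger of miR-106b, and here it lay above the other arm of its hairpin in both libraries. miR-106b-5p, which carries the miR-17 seed, stood at 417 and 362 CPM (390 ± 38.8 CPM). miR-92b-3p stood at 346 and 368 CPM (357 ± 15.8 CPM, rank 111). The remaining arms, usually passengers, were lower than these 5 in both libraries. miR-25-5p stood at 67.2 and 60.9 CPM (64.0 ± 4.46 CPM, rank 202). miR-92b-5p stood at 50.0 and 55.8 CPM (52.9 ± 4.09 CPM, rank 219), and miR-93-3p at 37.4 and 36.2 CPM (36.8 ± 0.852 CPM, rank 253).

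Folds of counts within a library were given with exact (Clopper-Pearson) 95% intervals, and a pair was called different where both intervals lay on the same side of equality and the mean log2 ratio exceeded 2 SD. Of the 7 pairs of neighbours in the order of levels, 5 differed by this rule. These intervals hold only counting error, and the SD rests on just 2 values. miR-25-3p exceeded miR-93-5p 3.95-fold in replicate 1 and 4.22-fold in replicate 2 (mean log2 ratio 2.03 ± 0.068). miR-93-5p exceeded miR-106b-3p 2.68-fold (2.62 to 2.73) and 2.24-fold (2.19 to 2.28). miR-92b-3p exceeded miR-25-5p, the next arm below it, 5.15-fold and 6.05-fold, and miR-92b-5p exceeded miR-93-3p 1.34-fold and 1.54-fold. The fifth pair that differed was miR-106b-3p and miR-106b-5p, the arms of 1 hairpin, at 3.62-fold and 4.89-fold. The pairs that could not be ordered were miR-106b-5p and miR-92b-3p, with a log2 ratio of 0.27 in replicate 1 and -0.024 in replicate 2, and miR-25-5p and miR-92b-5p, with 0.42 and 0.12.

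**Figure D1:**
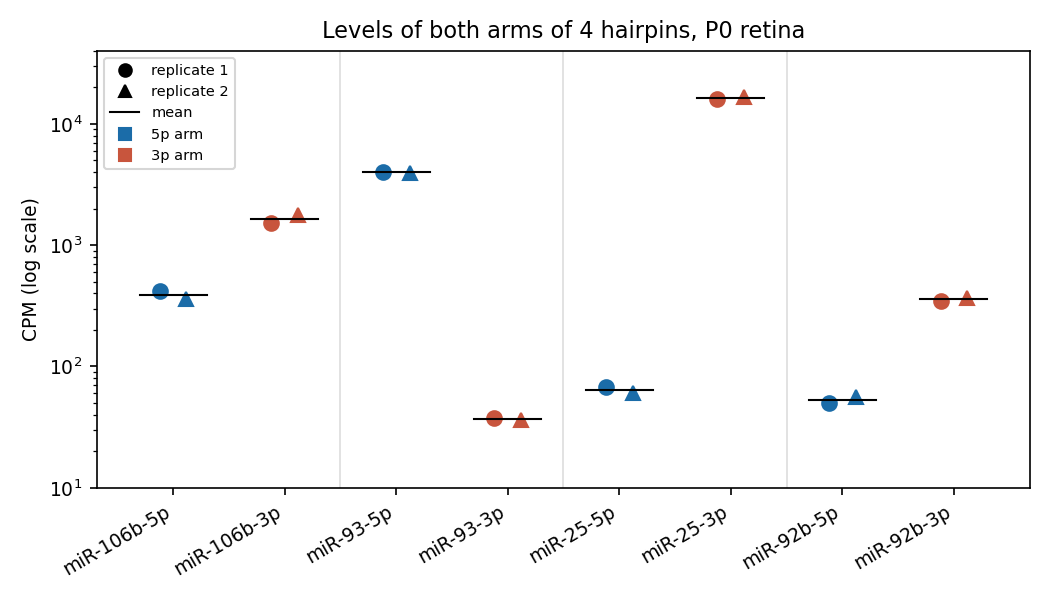
The level of each arm in CPM on a log axis, with a circle for replicate 1, a triangle for replicate 2 and a line at the mean, 5p arms in blue and 3p arms in red. miR-25-3p is the highest at 16363 CPM and miR-93-3p the lowest at 36.8 CPM, and the 3p arm of miR-106b lies above its 5p arm in both libraries.

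Although the cluster's hairpins share an intron, their mature products were unequal. Both arms together, miR-25 gave 72.8% of the cluster's counts in replicate 1 and 73.3% in replicate 2, miR-93 gave 18.5% and 17.4%, and miR-106b gave 8.74% and 9.30%. Counts of the miR-25 hairpin exceeded those of miR-93 4.06-fold (mean log2 ratio 2.02 ± 0.067, SD, n = 2). Those of miR-93 exceeded those of miR-106b 1.99-fold (0.99 ± 0.12), and both differences held by the rule above. The order of levels was thus the reverse of the order in which the hairpins are transcribed, with the first hairpin lowest and the last highest. miR-92b, from its own locus, gave far fewer counts, and the miR-25 hairpin exceeded it 40.5-fold and 39.6-fold.

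**Figure D2:**
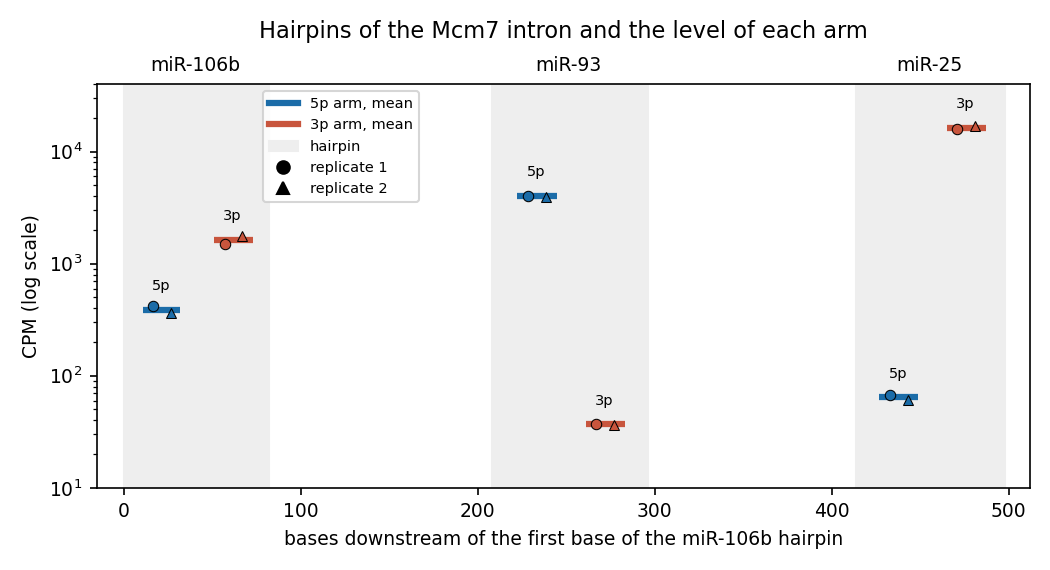
The 3 hairpins of the Mcm7 intron (grey) by distance in bases from the first base of the miR-106b hairpin, with the mean CPM of each arm as a line as long as the arm, on a log axis, and each library as a circle or triangle. The higher arm lies on the 3p side in miR-106b and miR-25 and on the 5p side in miR-93.

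The hairpins differed in which arm had more counts. In each library the counts of the 5p and 3p arms were tested for equality (exact binomial test, two-sided, Benjamini-Hochberg over 312 hairpins). A call needed the same sign in both libraries, adjusted p-values under 0.05 and a mean log2 ratio beyond 2 SD. By this rule 89.4% of all 312 hairpins had a called difference, 43.3% with the 3p arm higher and 46.2% with the 5p arm higher, so a call alone sets no hairpin apart. All 4 hairpins were called, 3 with the 3p arm higher and miR-93 with the 5p arm higher. A stricter view counts a ratio of 4-fold or more in both libraries, which 36.9% of the 312 hairpins reached for the 3p arm and 40.4% for the 5p arm. Of the 4 hairpins 3 reached it, miR-25 and miR-92b for the 3p arm and miR-93 for the 5p arm.

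Counts of miR-25 and miR-93 came almost only from 1 arm, on opposite sides. miR-25-3p had 133179 counts in replicate 1 and 136006 in replicate 2, against 560 and 494 for miR-25-5p, a 238-fold and 275-fold excess (log2 ratio of 5p over 3p -8.00 ± 0.15). miR-93-5p had 33695 and 32195 counts, against 312 and 294 for miR-93-3p, a 108-fold and 109-fold excess (6.76 ± 0.014). The median absolute log2 ratio was 4.59 over all 312 hairpins and 6.18 over the 129 hairpins with a summed level of 100 CPM or more, and both miR-25 and miR-93 lay beyond these medians. miR-92b was milder, with 2886 and 2991.5 counts for the 3p arm and 417 and 453 for the 5p arm, a 6.91-fold and 6.60-fold excess of 3p (-2.76 ± 0.048).

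miR-106b was the most even of the 4, and its larger arm was the one without the miR-17 seed. miR-106b-3p had 12593 counts in replicate 1 and 14387 in replicate 2, against 3480 and 2942.5 for miR-106b-5p. The 3p arm thus held 78.3% (77.7 to 79.0, exact 95% interval) of the hairpin's counts in replicate 1 and 83.0% (82.5 to 83.6) in replicate 2. The excess was 3.62-fold and 4.89-fold, so the hairpin passed 4-fold in replicate 2 and not in replicate 1 and was counted as using both arms, as were 71 of the 312 hairpins. The other hairpins of the miR-17 seed family with both arms among the miRNAs measured were miR-93, miR-17 and miR-20a. In these the 5p arm exceeded the 3p arm 109-fold, 38.6-fold and 258.5-fold, in that order (geometric means of 2 libraries). The 3p arms of miR-106a and miR-20b were not among the miRNAs measured, so those hairpins could not be compared. Of the 4 hairpins that could be compared, miR-106b alone had more 3p than 5p counts.

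The arm ratio of miR-106b was also set side by side in the libraries. A Fisher exact test of arm by library was run over all 312 hairpins after the values were seen. It compares the reads of 1 library with those of the other as if each read were a separate molecule, so its p covers counting error only. The log2 ratio of 5p over 3p in miR-106b was lower by 0.434 in replicate 2 (Fisher exact test, adjusted p = 3.35e-25). In this test 8.65% of all hairpins were called, and 18.6% of those 129 more abundant hairpins. Their median absolute shift was 0.252, so the shift of miR-106b was larger than the median but far smaller than the difference between its arms. The adjusted p of miR-25 was 0.169, and those of miR-93 and miR-92b were 1.

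**Figure D3:**
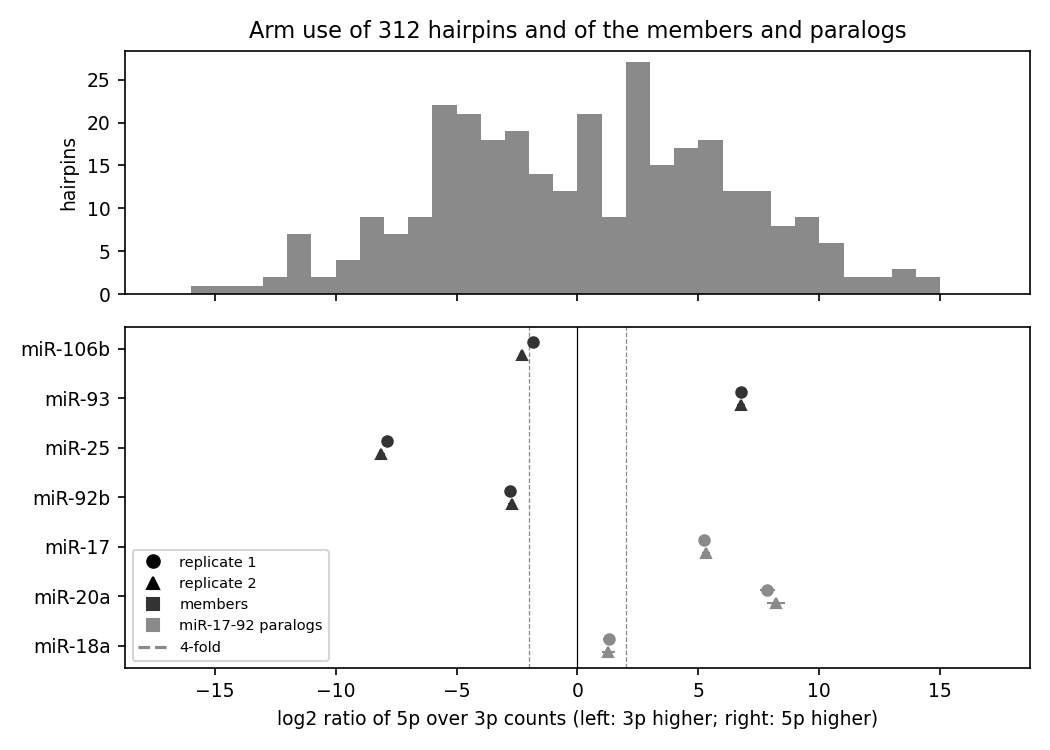
Upper panel, the mean log2 ratio of 5p over 3p counts for all 312 hairpins; lower panel, the ratio in replicate 1 (circles) and replicate 2 (triangles) with exact 95% intervals for the 4 hairpins (black) and 3 hairpins of the miR-17-92 cluster (grey), dashed lines marking 4-fold. miR-25, miR-92b and miR-106b lie on the 3p side and miR-93 and the 3 paralogs on the 5p side.

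The first base of a strand is known to matter for loading, with U favoured by Argonaute proteins, so it was read from the RefSeq sequences. The higher arm began with C in 3 of the 4 hairpins (miR-106b-3p, miR-93-5p and miR-25-3p) and with U in miR-92b. Among the 242 hairpins with both sequences, the higher arm began with U in 49.2%, with A in 27.3%, with C in 16.1% and with G in 7.44%, while the lower arm began with U in 25.6%. In 46 hairpins an arm began with U and the other with C, and the U arm was the higher in 78.3% of them. miR-106b, with U on its 5p arm and C on its 3p arm, was among the 10 (21.7%) with the C arm higher. This feature was chosen after the values were seen, and its part in the arm ratio was not tested.

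In both seed families the cluster supplied more counts than all other members together. The miR-17 seed family (AAAGUGC) had 6 miRNAs in the table and summed to 8073 and 7730 CPM in replicates 1 and 2. miR-93-5p held 50.1% (49.7 to 50.4) and 51.3% (50.9 to 51.7) of it, and miR-106b-5p held 5.17% and 4.69%. Of the others, miR-20a-5p held 27.1% and 27.2% and miR-17-5p held 17.6% and 16.6%, while miR-20b-5p and miR-106a-5p of the X-linked cluster held under 0.2% each. The share of miR-93-5p lay above that of miR-20a-5p in both libraries, with intervals far apart.

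The miR-92 seed family (AUUGCAC) had 5 miRNAs and summed to 28527 and 29187 CPM, exceeding the miR-17 family 3.53-fold and 3.78-fold. miR-25-3p held 56.0% (55.8 to 56.2) and 57.4% (57.2 to 57.6) of it, and miR-92b-3p held 1.21% and 1.26%. miR-92a-3p, made from 2 loci with the same mature sequence, held 41.5% and 40.1%. miR-32-5p held 1.18% in each library, close to miR-92b-3p, and the pair could not be ordered (log2 ratio of miR-92b-3p over miR-32-5p 0.042 and 0.099, mean 0.070 ± 0.040). In replicate 1 its interval included equality, with a fold from 0.977 to 1.08.

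**Figure D4:**
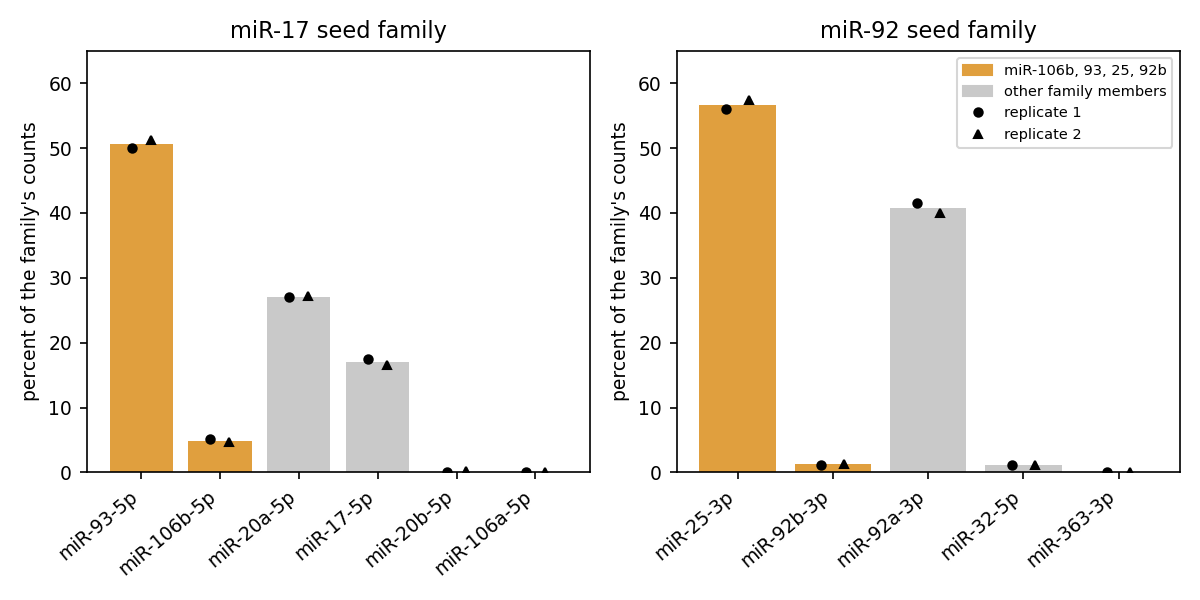
Percent of the counts of each seed family held by each miRNA, as the mean of 2 libraries (bars) and in replicate 1 (circles) and replicate 2 (triangles), with the arms of miR-106b, miR-93, miR-25 and miR-92b in orange and the other family members in grey. miR-93-5p holds 50.7% of the miR-17 family and miR-25-3p holds 56.7% of the miR-92 family.

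The paralogous positions of the clusters were compared in the same libraries. The miR-106b/93/25 cluster summed to 22046 and 22951 CPM in replicates 1 and 2, against 16094 and 15644 CPM for the 11 arms of the miR-17-92 cluster listed. This was a 1.37-fold (1.36 to 1.38) and 1.47-fold (1.46 to 1.48) excess. It exceeded the 5 listed arms of the miR-106a-363 cluster, which lack miR-19b and miR-92a because their mature guides also arise from miR-17-92, 511-fold in both libraries.

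The excess was not shared by all positions. miR-25-3p exceeded miR-92a-3p 1.35-fold and 1.43-fold (mean log2 ratio 0.48 ± 0.062), and miR-93-5p exceeded miR-20a-5p 1.85-fold and 1.89-fold (0.90 ± 0.020). miR-106b-5p was below miR-17-5p, at 0.295-fold and 0.282-fold (-1.79 ± 0.043), and all 3 differences held by the rule above. Counted over both arms the order turned, since the miR-106b hairpin exceeded the miR-17 hairpin 1.33-fold and 1.62-fold (0.55 ± 0.21), with the difference carried by miR-106b-3p. That arm exceeded miR-17-3p by a log2 ratio of 5.32 and 5.78 and was near miR-17-5p, which it exceeded 1.07-fold and 1.38-fold without passing 2 SD. Like the miR-106b cluster, the miR-17-92 cluster had its miR-92-type guide, miR-92a-3p, highest, although that guide is made from 2 loci. It exceeded miR-20a-5p 5.42-fold and 5.56-fold, and miR-20a-5p exceeded miR-17-5p 1.54-fold and 1.64-fold. The other guides listed, miR-18a-5p, miR-19a-3p and miR-19b-3p, lay below miR-17-5p, at means of 53.6, 249 and 222 CPM against 1350 CPM.

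For all 8 arms the libraries had the same most frequent read, as had 97.2% of the 180 miRNAs at 100 CPM or more and 92.9% of the 365 at 10 CPM or more. In all 8 the first 8 bases were those of RefSeq, which held for 92.5% of 161 and 89.2% of 314 such miRNAs with a RefSeq sequence, so the seeds given above are those of the reads. An added 3′ base was present in both libraries in 3 arms, namely miR-106b-5p, miR-93-3p and miR-25-5p, and in each it was the next base of the hairpin. Added 3′ bases were found in 17.2% of the 180 and 20.5% of the 365 miRNAs. The most frequent miR-106b-5p read was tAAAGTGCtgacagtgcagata, with the seed in capitals, and ended 1 base beyond the annotated arm. That of miR-106b-3p, cCGCACTGtgggtacttgctgc, matched the annotated arm from end to end.

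Some family members differ by few bases, and counts that are not whole point to reads shared out among several miRNAs. Relative to miR-92a-3p, miR-92b-3p carries U10C and G21C over 21 aligned bases, and miR-25-3p carries U1C, C14U and C18U (positions from 1 at the 5′ end, miR-92a-3p base first). Relative to miR-17-5p, miR-106b-5p carries C1U, U10G and G20A. The counts of miR-106b-5p and miR-92b-3p in replicate 2 ended in 0.5 and were the only counts among the 8 arms that were not whole. How many reads could have passed between family members was not tested.

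Between the libraries the log2 ratios of the 8 arms, replicate 2 over replicate 1, ran from -0.20 to 0.23 by table totals. Counts of replicate 2 and replicate 1 were set against the ratio of the table totals (exact binomial test, adjusted over 710 miRNAs), and 27.7% of all miRNAs were called, 8.17% higher and 19.6% lower in replicate 2. Among the 365 with a mean of at least 10 CPM the share was 51.5%, with 15.6% higher. Of the 8 arms, all in this range, 3 were called by table totals, 2 higher and 1 lower in replicate 2. The 3 called in either direction are no larger a share than the background of 51.5%. The 2 called higher are a larger share than the 15.6%, but rest on few arms. miR-106b-3p had a log2 ratio of replicate 2 over replicate 1 of 0.23 (exact binomial test, adjusted p = 4.76e-38), miR-25-3p one of 0.069 (exact binomial test, adjusted p = 5.98e-34) and miR-106b-5p one of -0.20 (exact binomial test, adjusted p = 1.29e-07). The arms of miR-106b thus went opposite ways. The median log2 ratio was 0.021 over the 8 arms and -0.12 over all 710 miRNAs, and the median absolute ratio of the 365 miRNAs at 10 CPM or more was 0.18. The test compares libraries, not conditions, and covers counting error only.

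The scaling moved these differences, because the median log2 ratio of all miRNAs was -0.0018 with TMM and -0.022 with DESeq2 size factors. Over all 710 miRNAs, 58 were called higher and 139 lower in replicate 2 by table totals, 107 higher and 78 lower with TMM, and 99 higher and 88 lower with DESeq2 size factors. With TMM 5 of the 8 arms were called, all higher in replicate 2, and with DESeq2 size factors 6 were called, 5 of them higher. No background at 10 CPM or more is given for TMM and DESeq2 size factors, so the comparisons made above hold for table totals only. miR-106b-3p was higher in replicate 2 under all 3 scalings, at 0.23, 0.35 and 0.33. miR-106b-5p was lower under all 3, at -0.20, -0.083 and -0.10, but was not called with TMM (adjusted p = 0.0774, exact binomial test). miR-93-5p turned its sign, at -0.027 by table totals, 0.093 with TMM and 0.073 with DESeq2 size factors. Ratios of counts within a library do not depend on the scaling.

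**Figure D5:**
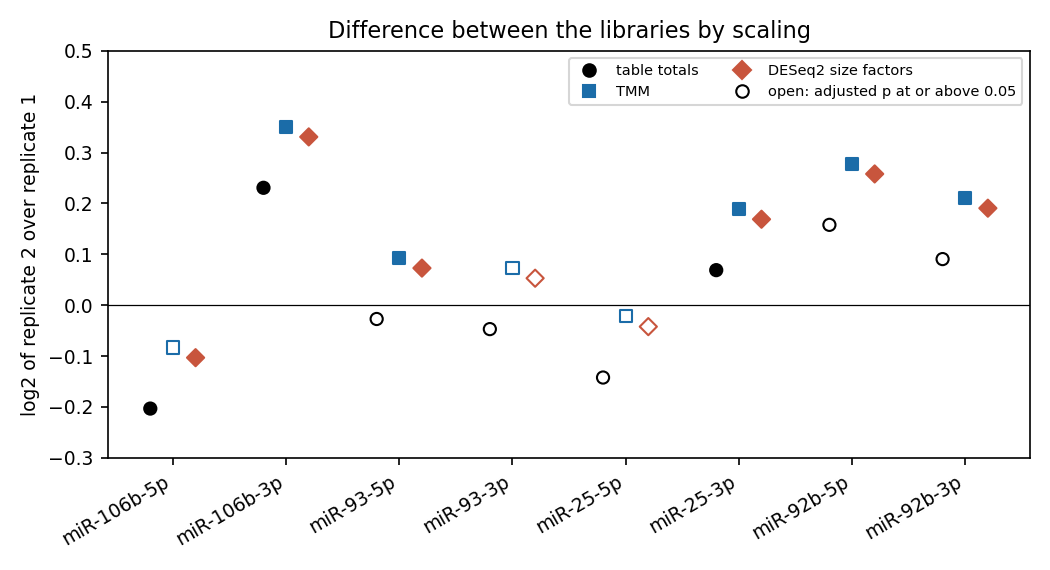
The log2 ratio of replicate 2 over replicate 1 for each arm with 3 scalings, by table totals (black circles), TMM (blue squares) and DESeq2 size factors (red diamonds), filled where the adjusted p was below 0.05. miR-106b-3p lies highest, at 0.23 to 0.35, and miR-106b-5p lies below 0 with each scaling.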

How the data were processed

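The deposited table of estimated counts held 1 value per mature miRNA and library. Of its values 6.77% (replicate 1) and 5.96% (replicate 2) had a fraction, which was rounded away before testing. The deposited CPM table was scaled by the authors to a library total of which these rows are 88.5%, so CPM was recomputed here from table totals and was 1.13 times the deposited CPM. Levels and shares used counts as deposited. The third deposited file is text, namely the most frequent read of each miRNA marked against miRBase 21, per the file headers. The submitters' processing notes name bcl2fastq 2.17.1.14. No aligner, counter or build is given in the sources used here. Per the labels' protocols RNA of small size was taken from a gel and ligated to adapters.

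Log2 ratios used 0.5 added to each count. A hairpin was tested if both its arms were measured and summed to 10 counts or more in each library. A miRNA was tested if its libraries summed to 10 counts or more. All 8 arms passed. Tests were run on the whole table, and edgeR's quasi-likelihood test could not be fitted with 1 group. Names of 1152 of 1358 miRNAs matched RefSeq (GRCm38), and hairpin positions were placed in the GENCODE annotation of that build. The alternatives were other totals, TMM (edgeR 4.0.16), DESeq2 1.42.0 size factors, other filters and pseudocounts, and single libraries. The background of the reads at 10 CPM or more, the Fisher test and the hairpins at 100 CPM or more were chosen after seeing the data. The binomial tests were also run on simulated counts with planted differences between libraries and between arms, in which the only noise was counting error. That setting cannot show how the tests behave where replicate libraries have noise beyond counting error. R 4.3.3, Python 3.11.15, SciPy 1.17.1, statsmodels 0.14.6 and matplotlib 3.10.9 were used. The named miRNAs were the 8 arms, miRNAs sharing a seed, the listed paralogs and the neighbours in level of the highest arm of each hairpin. For miR-93-5p these were miR-151-3p (4135 ± 259 CPM) and miR-541-5p (3952 ± 239 CPM), for miR-106b-3p miR-210-3p (1709 ± 49.6 CPM) and miR-296-3p (1622 ± 20.3 CPM), and for miR-92b-3p miR-149-5p (363 ± 55.4 CPM) and miR-130a-3p (343 ± 55.5 CPM). The members and lists were chosen with earlier results of these data known.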

Additional observations from a re-analysis of the deposited data

How the results depend on the processing

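The percent of counts held by the 8 arms was 2.29 by table totals, 2.03 with the total implied by the deposited CPM and 2.96 with a total without miR-9-5p, and from 2.24 to 2.34 in single libraries. All 4 arm ratios were called with a pseudocount of 1, without the count filter and in single libraries, and from 3 to 4 hairpins passed 4-fold in single libraries, while 2 passed 10-fold. The log2 ratio of the cluster over its paralogs was 0.50, from 0.45 to 0.55 in single libraries. The members' shares of the seed families were from 55.2% to 56.0% and from 57.2% to 58.7%. From 5 to 7 of 7 neighbouring pairs differed in single libraries, and the log2 ratio of miR-106b-5p over miR-92b-3p was -0.024 without replicate 1 and 0.27 without replicate 2.

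Between the libraries, members called numbered 3 by table totals, 5 with TMM, 6 with DESeq2 size factors and 4 without miR-9-5p in the totals. Of all 710 miRNAs, 197, 185, 187 and 202 were called with these scalings, in the same order. The edgeR exact test with a dispersion estimated from the same 2 libraries called 0 members and 0 of 710 miRNAs, with 0 members and 29 miRNAs at an unadjusted p below 0.05. That test takes the libraries' own difference as the spread, so it says nothing of stability. Signs that turned were those of miR-93-5p (0.093 with TMM and in edgeR, 0.073 with DESeq2 size factors) and miR-93-3p (0.073 with TMM and in edgeR, 0.053 with DESeq2 size factors). No paired analysis was possible because there is 1 group. Differences between libraries cannot be recomputed without a library.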
